A study of Mus musculus with 2 samples.

Results

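Chains of closely spaced macroH2A1.1 regions were examined in C2C12 cells. A chain was defined as 5 or more consecutive regions on an autosome in which the listed end of each region lay 2000 bp or less before the listed start of the next. Because the listed end is the last base of a region, the largest uncovered gap inside a chain was 1800 bp. Of the 50887 regions in the list, 49047 lay on autosomes, and 2983 of these (6.08%) formed 494 chains. Allowing 2000 uncovered bp between regions would give 587 chains with 3564 regions. Another 16 chains with 99 regions, which start between 80 and 100 Mb of chromosome 8, were left out. The remaining 45965 autosomal regions served for comparison.

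The data came from 1 macroH2A1.1 ChIP library and 1 input library of wild-type C2C12 cells, a mouse myoblast line that fuses into myotubes when serum is reduced. The antibody recognises macroH2A1.1, and the input is chromatin sequenced without antibody. The labels give the source as myoblast, whereas the sample descriptions carry the abbreviation DM, used in the growth protocol for differentiation medium, and the study describes the profile as one of myotubes. Both libraries share the line and the genotype, and no treatment, age or allele separates them.

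MacroH2A1 is a variant of histone H2A that carries a large macrodomain outside the nucleosome core. Alternative splicing yields the isoforms macroH2A1.1 and macroH2A1.2, of which macroH2A1.1 can bind ADP-ribose. MacroH2A variants typically occupy broad stretches of chromatin rather than sharp sites, and they are best known from the inactive X chromosome and other repressed chromatin. A caller for broad domains breaks such a stretch wherever reads are too sparse, so that 1 occupied stretch can be listed as several regions.

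The regions were selected by their listed positions, and these come from the same comparison of ChIP with input that gives the enrichment. All values below are therefore descriptions and no difference was tested. Each group held 1 library, and regions are not replicates. Intervals of enrichment are 95% exact (Clopper-Pearson) intervals, which cover counting error only. Positions are in mm9 and counted from 1, and genes were not assigned because the annotation at hand is in another build.

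Most chains were short. Chains of 5 regions were the most frequent, with 251 of 494 (50.8%), and those of 5 or 6 regions together made up 74.9%. There were 63 chains of 7 regions, 21 of 8 and 23 of 9. Only 17 chains had 10 regions or more, and these held 198 regions. The longest had 17 regions, followed by 2 chains with 16 each, and none had 13, 14 or 15.

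A chain extended over a median of 37.0 kb, with quartiles at 28.4 and 50.4 kb and a range from 14.6 to 347.8 kb. Regions covered a median of 86.1% of the span, with a range from 70.8 to 98.2%. The rule accepts only short gaps, so a high covered share follows in part from the selection. The uncovered sequence amounted to a median of 5.0 kb per chain. Of the 2489 gaps inside chains, 1018 (40.9%) had 800 bp, the shortest distance in the list, and 594 (23.9%) had 1000 bp. The shortest distance depends on the gap setting of the caller. Gaps of 1800 bp, the longest that were accepted, made up 5.34%. Together the chains spanned 21.9 Mb, of which 19.2 Mb were covered. This was 8.69% of the covered length on autosomes, more than the 6.08% of regions.

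**Figure D1:**
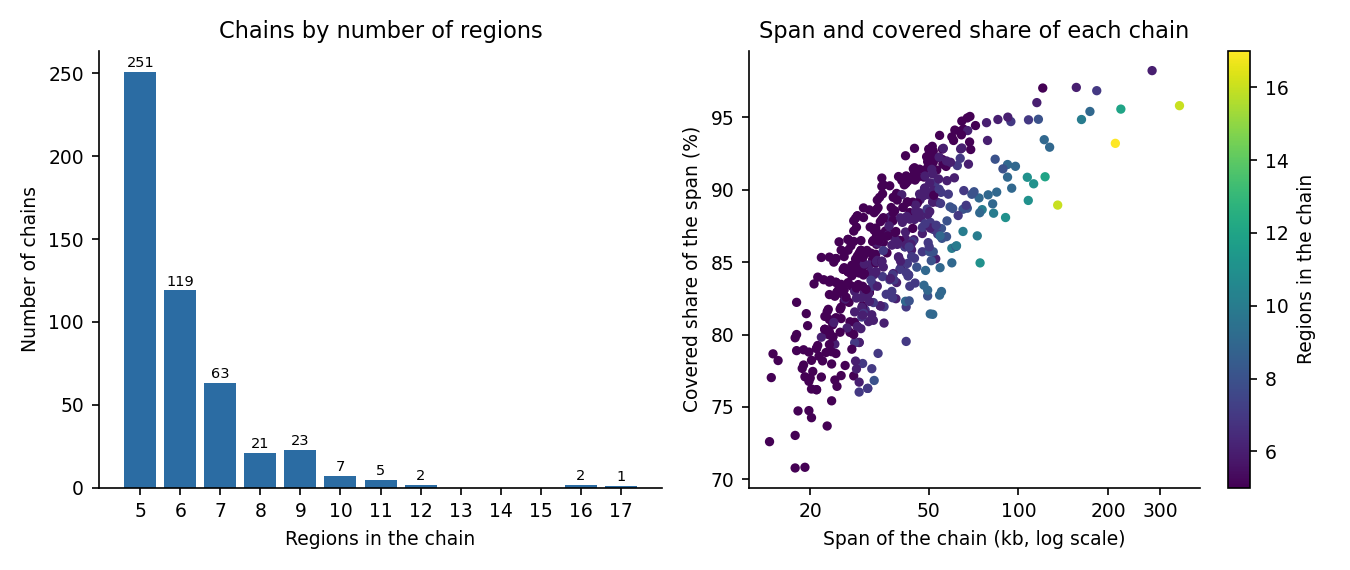
Left, number of chains (y axis) by the number of regions in the chain (x axis), with 251 chains of 5 regions and 1 chain of 17. Right, covered share of the span in percent against the span in kb on a log scale, 1 point per chain coloured by its number of regions; the covered share lies between 70.8 and 98.2% and is highest in chains with a long span.

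Wide members made up a large part of some chains. The widest member held a median of 33.1% of the covered length of its chain, and in 22 chains a single region held more than 50%. Regions wider than 20 kb occurred in 67 chains. These chains held 101 of the 406 autosomal regions of that width, which is 24.9%, although chains held 6.08% of autosomal regions.

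The chains with the most members were long multi-part stretches. The first, on chromosome 1 from 92119401 to 92331200, had 17 regions over 211.8 kb and was covered at 93.2%. Its members summed to 5023 ChIP reads and 1470 input reads and were enriched 2.36-fold as a whole (2.22 to 2.50). The next 2 lay on chromosome 6. One extended from 84265801 to 84401400 with 16 regions over 135.6 kb and was enriched 2.28-fold (2.11 to 2.47), with members from 1.38-fold to 5.64-fold. The other, from 99823601 to 100171400, had 16 regions over 347.8 kb and was the longest of all chains. Chromosome 15 held the others among the 5, which were chains of 12 regions from 71495201 to 71618200 and from 84214801 to 84435800. They spanned 123.0 and 221.0 kb and were enriched 2.25-fold (2.08 to 2.43) and 1.95-fold (1.86 to 2.04).

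Long span and many members did not always go together. The second longest chain, on chromosome 15 from 78369801 to 78651200, had only 6 regions over 281.4 kb and an enrichment of 1.72-fold (1.65 to 1.78). It was also the most densely covered of all chains, at 98.2%, since its members were 14.4 to 72.2 kb wide. Another of the 5 longest, on chromosome 9 from 60812001 to 60995400, had 7 regions over 183.4 kb. After the chain on chromosome 15, the highest covered shares were 97.1% on chromosome 9 from 60997601 to 61154200 and 97.0% on chromosome 6 from 100285201 to 100406000. These were chains of 6 and 5 regions, with widest members of 46.0 and 43.0 kb. At the other end stood small chains of narrow regions. The lowest covered shares were 70.8% on chromosome 1, both from 123051001 to 123068800 and from 82146201 to 82165400, and 72.6% on chromosome 13 from 91473601 to 91488200. Each of these had 5 regions over 14.6 to 19.2 kb.

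Next, the enrichment of whole chains was taken from the summed reads of their members. Per chain there were 244 to 11074 ChIP reads, the median being 710.5, and 65 to 3840 input reads, the median being 216.5. Divided by the library factor of 1.45, their ratio gave a median enrichment of 2.31-fold over chains, with quartiles at 2.02-fold and 2.55-fold and a range from 1.45-fold to 3.74-fold. The lower limit of the interval was above 1-fold in all 494 chains and above 2-fold in 226 (45.7%). In 30 chains the upper limit stayed under 2-fold. Every region was listed because the caller found more ChIP than input reads in it, so a lower limit above 1-fold follows from the selection. An enrichment of 3-fold or more was reached by 32 chains.

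The chains with the highest enrichment were small. They were led by 5 regions on chromosome 7, between 141646401 and 141668800, where 352 ChIP reads and 65 input reads gave 3.74-fold (2.86 to 4.94). Then followed 5 regions on chromosome 9, between 34744401 and 34766600, enriched 3.68-fold (2.92 to 4.68). The 5 regions on chromosome 16 between 30846601 and 30869000 also reached 3.68-fold (2.91 to 4.69). Another chain of chromosome 7, between 88311001 and 88330400, reached 3.58-fold (2.78 to 4.68). The last, on chromosome 6 between 90734201 and 90785800, reached 3.53-fold (3.07 to 4.07). All 5 intervals overlapped, so their order is not resolved by counting error. The longest chain, on chromosome 6, had 11074 ChIP reads and 2290 input reads, and with 3.34-fold (3.19 to 3.49) it came close to these at a much smaller error.

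The lowest enrichment was found on chromosome 15 from 25393801 to 25427800, where 6 regions had 674 ChIP reads and 321 input reads. This is 1.45-fold (1.27 to 1.66). Values of 1.45-fold (1.27 to 1.67) on chromosome 5 from 36704601 to 36746600, 1.48-fold (1.29 to 1.70) on chromosome 19 from 56941401 to 56978200, 1.51-fold (1.28 to 1.78) on chromosome 11 from 69260801 to 69287600 and 1.54-fold (1.37 to 1.74) on chromosome 15 from 96735801 to 96779600 were next. These chains and the 5 highest were ranked on the enrichment itself, so the distance between both sets follows from the choice. The 5 lowest chains had 218 to 390 input reads, against 65 to 239 in the 5 highest. Their ChIP reads overlapped, with 477 to 873 against 352 to 1223. Input reads enter the ranking as the denominator, so their difference follows in part from the choice.

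Enrichment and input density moved in opposite directions across chains. The Spearman correlation of enrichment with input reads per kb was -0.768 over the 494 chains. The enrichment contains the input reads as its denominator, and all chains share the same 2 libraries, so this is a description only. By contrast, the correlation of enrichment was 0.120 with the number of members, 0.0968 with the span and 0.0447 with the covered share. Enrichment thus varied little with the length or density of a chain when whole chains were compared.

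Members of chains were then set beside the other autosomal regions. Members had a median enrichment of 2.37-fold, with quartiles at 1.88-fold and 2.99-fold. The others had 2.20-fold, with quartiles at 1.74-fold and 2.86-fold. The difference of the medians was 0.11 on the log2 scale, and the distributions overlapped widely. Members had a median width of 4600 bp against 3400 bp, and they had 22.6 against 20.4 ChIP reads per kb and 6.67 against 6.39 input reads per kb. The somewhat higher enrichment thus came with more ChIP reads per kb, not with fewer input reads.

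An enrichment of 2-fold or more was reached by 2049 members (68.7%), where 61.3% of the whole list reached it. Strongly enriched regions were not more frequent, with 255 members (8.55%) at 4-fold or more against 8.34% of the whole list. Weak regions were fewer, as 228 members (7.64%) stayed under 1.5-fold against 11.3% of the list. A one-sided binomial test (exact, ChIP above input), which takes the counting error of the input into account and compares these libraries only, left 2813 members (94.3%) with an FDR of 0.05 or less against 89.2% of the list. Members hold more reads than other regions, a median of 100 ChIP reads and 31 input reads against 67 and 22, and the part of read number in these calls was not tested. In 351 chains (71.1%) every member had this call.

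Median enrichment, width and ChIP density were higher in long chains than in single regions, but not at every step between them. Single regions, with no neighbour at this distance, had a median enrichment of 2.17-fold, pairs and groups of 3 had 2.23-fold each, and groups of 4 had 2.32-fold. Chains of 5 to 6 regions had 2.32-fold, those of 7 to 9 regions had 2.41-fold and those of 10 or more had 2.48-fold. The median width of a region went from 3400 bp in single regions to 4400, 4600 and 5800 bp in the 3 classes of chains. ChIP reads per kb went from 20.0 in single regions to 22.3, 23.1 and 24.0, whereas input reads per kb moved little, from 6.32 to 6.67, 6.61 and 6.68. The share of regions under 1.5-fold was 12.3% among single regions and 4.55% in the longest class of chains.

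**Figure D2:**
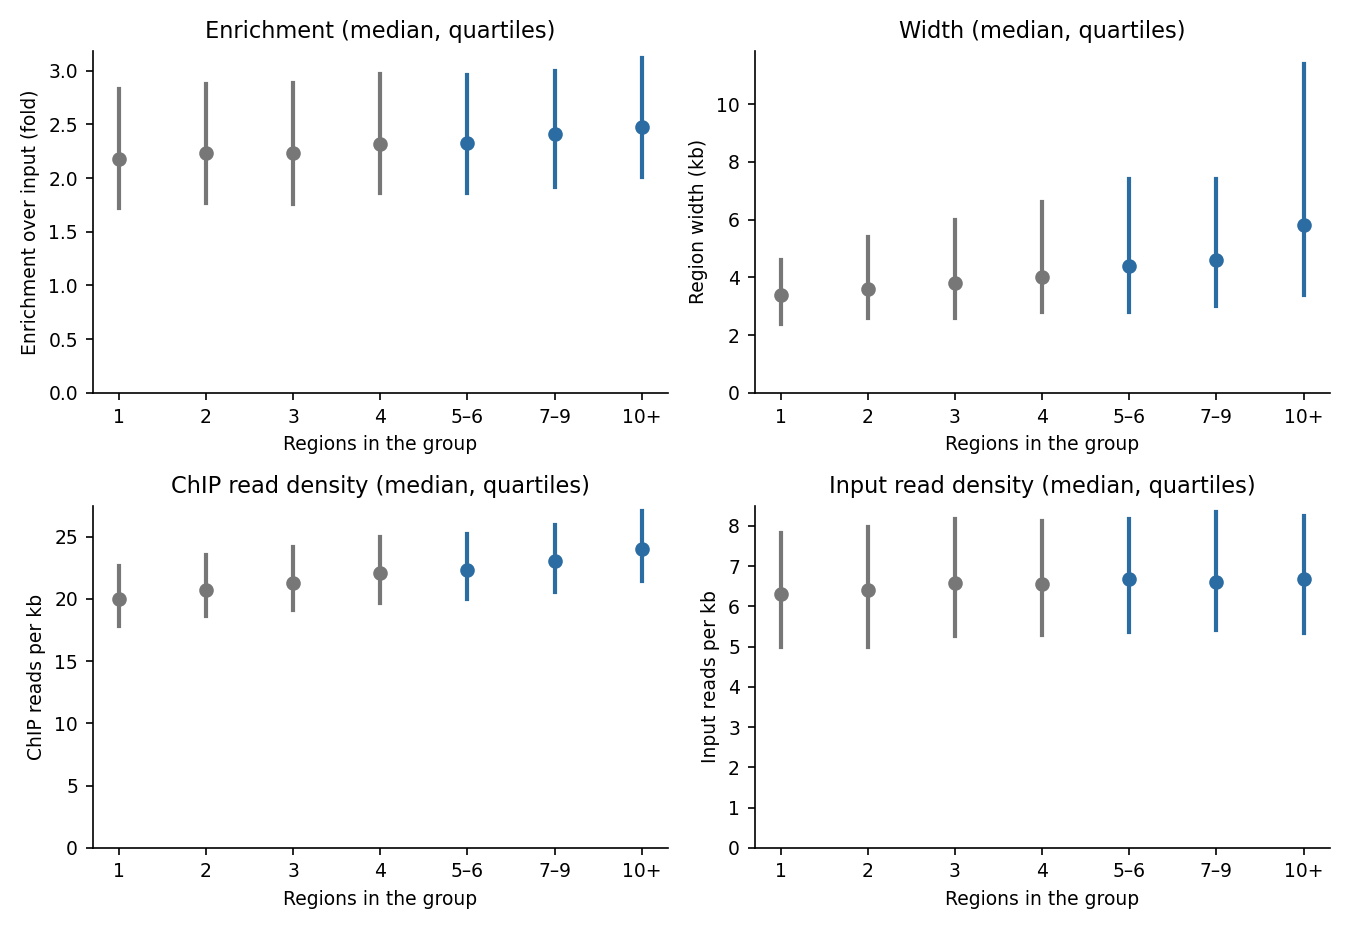
Medians (points) and quartiles (bars) of enrichment over input, region width in kb, ChIP reads per kb and input reads per kb, for groups of 1 to 4 regions (grey) and chains of 5 or more (blue) on the x axis. Median enrichment goes from 2.17-fold in single regions to 2.48-fold in chains of 10 or more, and the quartile ranges of all classes overlap.

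The difference between members and other regions was also taken within sets of similar regions. When autosomal regions were split into 10 classes of input reads per kb, the median enrichment of members was above that of others in all 10, by 0.065 to 0.21 on the log2 scale. In the lowest class, with up to 4.0 input reads per kb, it was 4.59-fold in 218 members and 4.38-fold in 4677 others. In the highest class it was 1.52-fold in 349 members and 1.45-fold in 4546 others. With 10 classes of width, members were higher in 9 and equal in the narrowest, where both had 2.97-fold. Within single autosomes, members were higher on 18 of 19, with differences up to 0.29 on chromosome 14. On chromosome 12 they were lower by a log2 difference of -0.064.

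The regions just inside and just outside the selection had similar values. The 251 chains of 5 regions had a median enrichment of 2.25-fold and a covered share of 85.3%. The 638 groups of 4 regions had 2.28-fold and 85.5%, over a median span of 22.0 kb against 29.2 kb. The first chain of 5, on chromosome 1 from 39286601 to 39321000, was enriched 2.18-fold (1.85 to 2.58). The first group of 4, on the same chromosome from 35893601 to 35913400, was enriched 2.31-fold (1.87 to 2.87). Neighbours separated by 1800 bp, the last distance accepted, formed 810 pairs with a median enrichment of 2.24-fold per region. Those separated by 2000 bp formed 834 pairs with 2.20-fold.

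It was then asked how even the enrichment is inside a chain. The chain with the most members shows the pattern. From its first to its sixth region, the enrichment was 2.37, 2.65, 1.68, 1.79, 2.09 and 2.00-fold. The seventh to twelfth regions had 2.80, 1.40, 2.77, 1.84, 2.61 and 2.21-fold. The last 5 had 3.18, 2.64, 2.09, 3.77 and 3.74-fold. The values thus rose and fell along the 211.8 kb, and the highest lay at the far end. Most neighbouring members had overlapping intervals, so most of these changes are not resolved by counting error. The lowest value belonged to the region from 92181601 to 92186600, with 136 ChIP reads, 67 input reads and an interval of 1.04 to 1.90. Its right neighbour, 1000 bp away, was the widest member (26.0 kb, from 92187601 to 92213600). It had 638 ChIP reads, 159 input reads and an interval of 2.32 to 3.31. These intervals did not overlap. The weak region had 13.4 input reads per kb and its neighbour 6.12, while their ChIP reads per kb were 27.2 and 24.5.

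The longest chain, on chromosome 6, was built around several wide members. Its widest region, of 89.6 kb from 100014801 to 100104400, had 3378 ChIP reads and 557 input reads, or 4.18-fold (3.82 to 4.58). The next region on its right had 54.6 kb and 3.07-fold (2.78 to 3.38), and the last one of the chain had 10.8 kb and 1.65-fold (1.31 to 2.09). None of these 3 intervals overlapped, so the enrichment fell stepwise towards the right end by more than counting error. Input reads per kb were 6.22, 9.36 and 9.91 in the same 3 regions, and ChIP reads per kb were 37.7, 41.6 and 23.7. From the first to the second of them, ChIP density thus rose while enrichment fell. The part of either density in the steps was not tested. On the left end the first 4 members had 3.09 to 4.09-fold.

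The densest chain, on chromosome 15, had a similar step. Its first 5 members lay between 1.81-fold and 2.20-fold, while the last and widest, of 72.2 kb from 78579001 to 78651200, had 2360 ChIP reads, 1321 input reads and 1.23-fold (1.15 to 1.32). The input density was 18.3 reads per kb in the last member and 8.82 to 14.0 in the others. The ChIP density was 32.7 reads per kb in the last member, within the range of the others (27.6 to 41.4). The SD of log2 enrichment among the members of this chain was 3.45 times what counting error gives, the highest ratio of all chains.

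**Figure D3:**
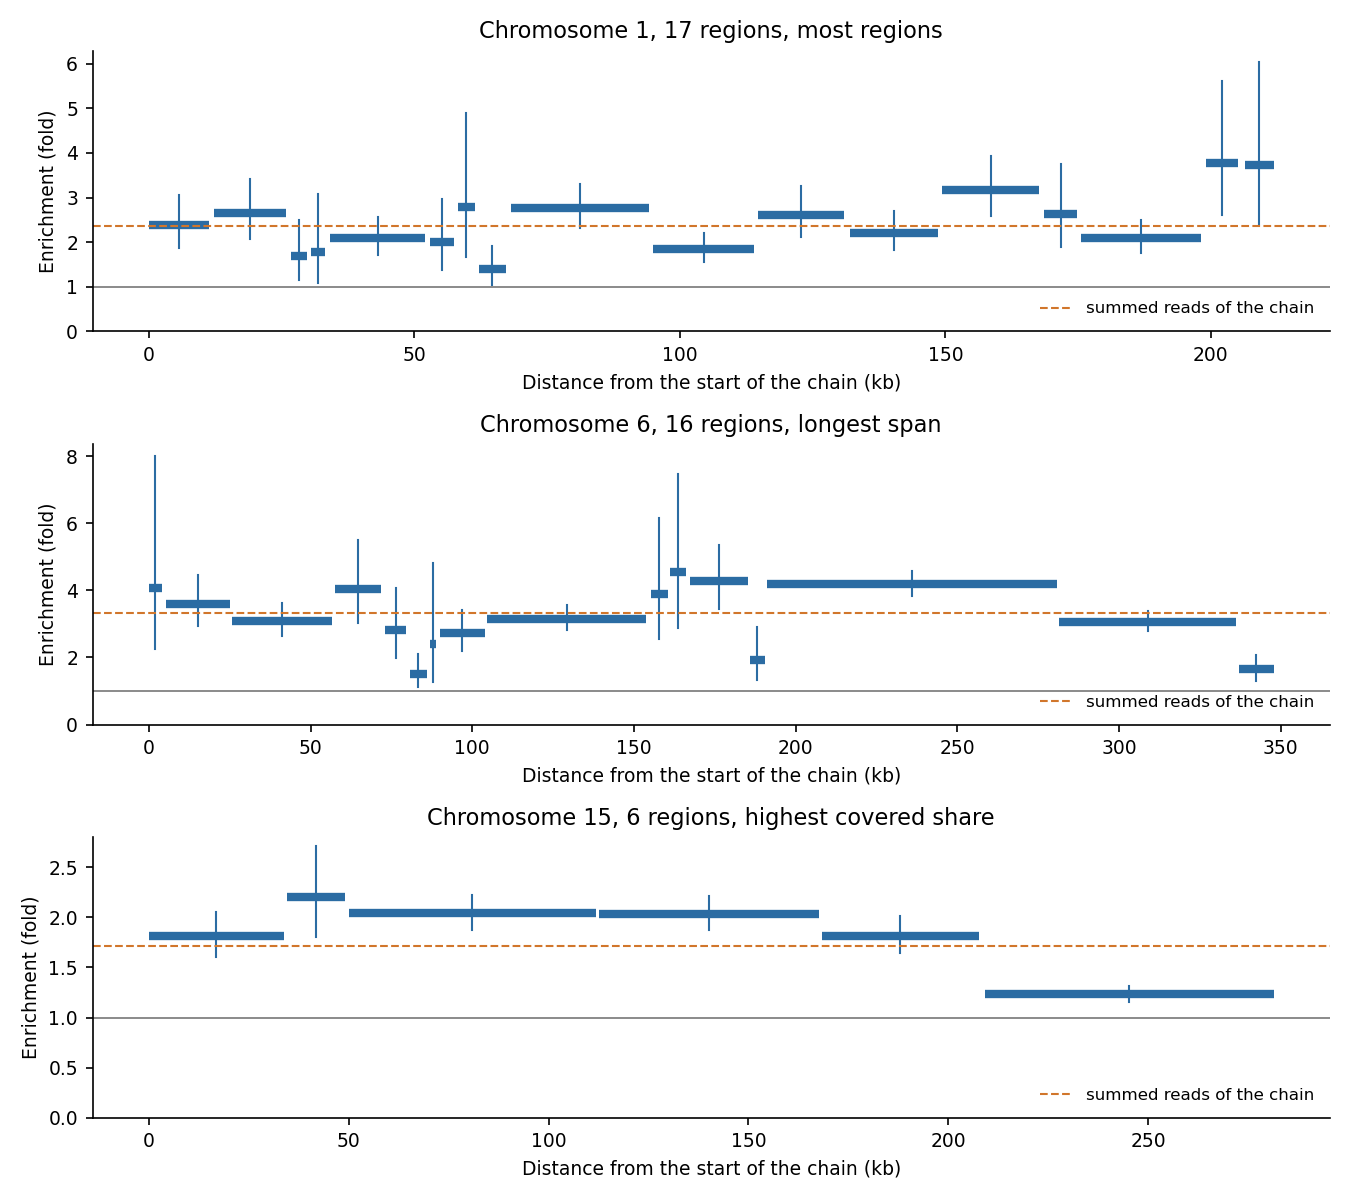
Enrichment over input (y axis, fold) of each member of 3 chains against the distance from the start of the chain in kb. Horizontal bars span the regions, vertical lines are 95% exact intervals, the dashed line is the enrichment of the summed reads (2.36-fold, 3.34-fold and 1.72-fold from top to bottom), and the grey line marks 1-fold; the last member of the chains on chromosomes 6 and 15 lies below the dashed line.

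Over all chains, the SD of log2 enrichment among members had a median of 0.44, with quartiles at 0.34 and 0.56. Counting error alone, from the members' own reads, gives a median SD of 0.34. The observed SD exceeded that of counting error in 387 chains (78.3%) and was more than 2 times as large in 45. An SD from so few members is imprecise, and no single chain was tested against counting error. Taken over all chains, variation was wider than counting error, but counting error was a large part of it. Over all 2983 members, the mean counting variance amounted to 47.3% of the variance inside chains. Only 9.47% of the variance of members lay between chains. The variance was 0.026 between chains and 0.25 inside them, where counting error gives 0.12. On these values, counting error included, members of the same chain were hardly more alike than members of different chains. For the 2489 pairs of consecutive members, the Spearman correlation of log2 enrichment was 0.0860. It was 0.107 for 11001 pairs at the same distances outside chains and 0.0747 for 3682 consecutive regions 100 kb or more apart. These weak values share libraries and local depth, and no difference among them is read from them.

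The chains with the largest SD on the caller's values each held 1 narrow member with 4 or fewer input reads. For the first 2 of them the rank rests on a member with no input read or only 1. On chromosome 9, in the chain from 60812001, a region of 400 bp had 24 ChIP reads and no input read. The caller put 0.25 in place of the missing input read, which gave the chain an SD of 1.72, and with a floor of 3 input reads the SD was 0.41, under the median over chains. The lower limit of that region's exact interval was 4.15-fold, and the strongest of the 6 other members, with 3.79-fold (2.59 to 5.72), overlapped it. The upper limits of the remaining members, from 2.82 to 3.78, lay below it. On chromosome 17, in the chain from 74385201 to 74408800, a region of 1000 bp had 31 ChIP reads and 1 input read, a ratio whose interval is 3.56 to 871.4. The SD of this chain was 1.34 as called and 0.67 with the floor. On chromosome 11, in the chain from 54934001 to 54965000, a region of 1800 bp had 54 ChIP reads and 4 input reads, or 9.31-fold (3.43 to 35.4). Its chain had an SD of 1.07 on both scales, the largest of all chains with the floor. Only 1 of the 2983 members had no input read, and 8 had 1 to 3.

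The ends of chains were compared with their inside, to see whether enrichment tapered off. The first and last members had a median of 2.30-fold, and the members between them 2.40-fold. The second members from either end had 2.35-fold and the third 2.41-fold. Within a chain, the ends were lower than the inside by a median log2 difference of -0.045, with quartiles at -0.32 and 0.24. They were lower in 270 chains and higher in 224. Any taper was thus small beside the spread between chains. Ends were narrower in 280 chains and had fewer ChIP reads per kb in 278. They had more input reads per kb in 249 and fewer in 245. The strongest member was at an end in 164 chains (33.2%) and the weakest in 190 (38.5%), where 2 of n places per chain make 34.7% on average.

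The widest member was less often the strongest than its share of places. It had the highest enrichment in 54 chains (10.9%) and the lowest in 93 (18.8%), where 1 of n places makes 17.4%. Outside chains, too, the narrowest of the 10 width classes had a higher median enrichment than the widest (2.97-fold against 2.08-fold). This is therefore not read as a trait of chains.

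**Figure D4:**
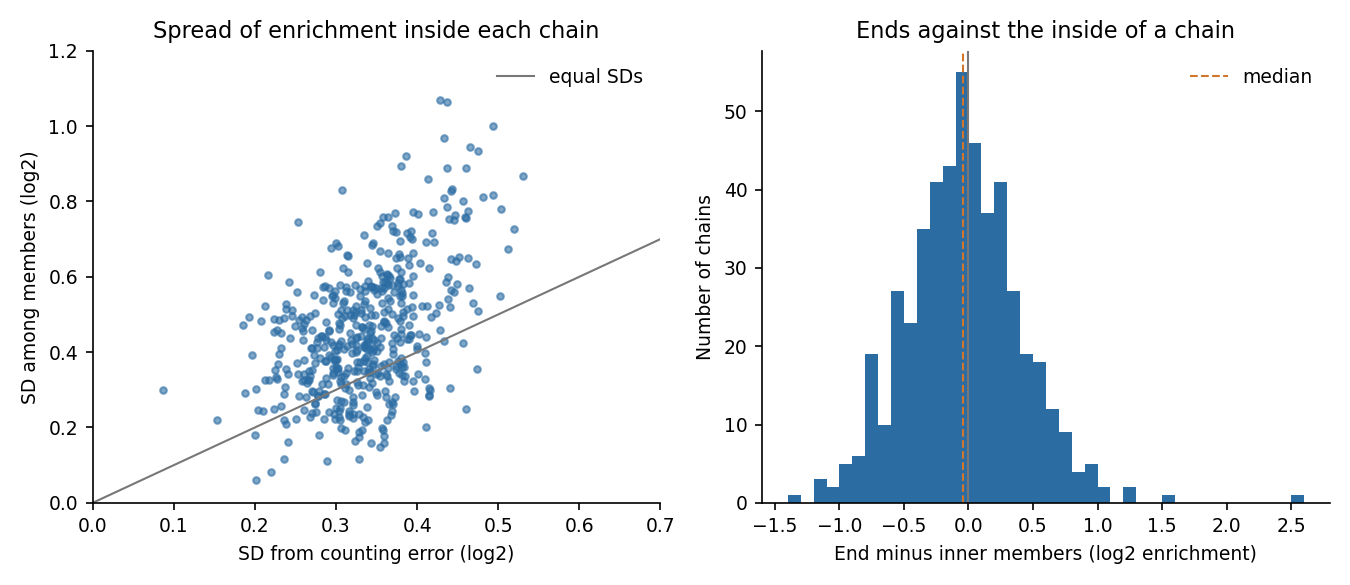
Left, SD of log2 enrichment among the members of each chain (y axis, with a floor of 3 input reads) against the SD from counting error (x axis), 1 point per chain, with a line of equal SDs; 387 of 494 points lie above the line. Right, number of chains by the log2 enrichment of their ends minus that of their inner members, with the median of -0.045 dashed.

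Chains occurred on every autosome in unequal number. The share of regions that lay in chains had a median of 6.07% over the 19 autosomes. It was highest on chromosome 6, at 10.1% (259 of 2572 regions in 39 chains), followed by chromosome 15 at 9.72% (363 of 3733 in 60 chains) and chromosome 16 at 8.45%. It was low on chromosome 7, at 1.99% (22 of 1103 in 4 chains). On chromosome 8 it was 1.69% (43 of 2541) only because the 99 regions in chains of the segment left out were not counted. With these it was 5.59% (142 of 2541), close to the median, and chromosome 7 was then the lowest. Chromosome 6 held its many chains at 17.2 regions per Mb. This is less than on chromosome 9, with 22.8 per Mb and 4.44% in chains, or on chromosome 10, with 24.3 per Mb and 4.68%. The extremes of density went the other way, as chromosome 15 had the most regions per Mb (36.1) and chromosome 7 the fewest (7.23). Over 19 autosomes, the Spearman correlation of region density with the share in chains was 0.0386 (0.0035 with the segment of chromosome 8). That of input reads per kb in the regions with this share was 0.31. Both describe points that share both libraries.

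Chains on chromosome 15 had a median enrichment of 1.95-fold and those on chromosome 7 one of 3.50-fold. The members had 9.30 input reads per kb on chromosome 15 and 4.80 on chromosome 7, the highest and the lowest values among autosomes. The part of input density in this contrast was not tested. The 16 chains in the segment of chromosome 8 that was left out had 12.1 input reads per kb and a median enrichment of 1.61-fold, with a range from 1.31-fold to 2.18-fold.

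**Figure D5:**
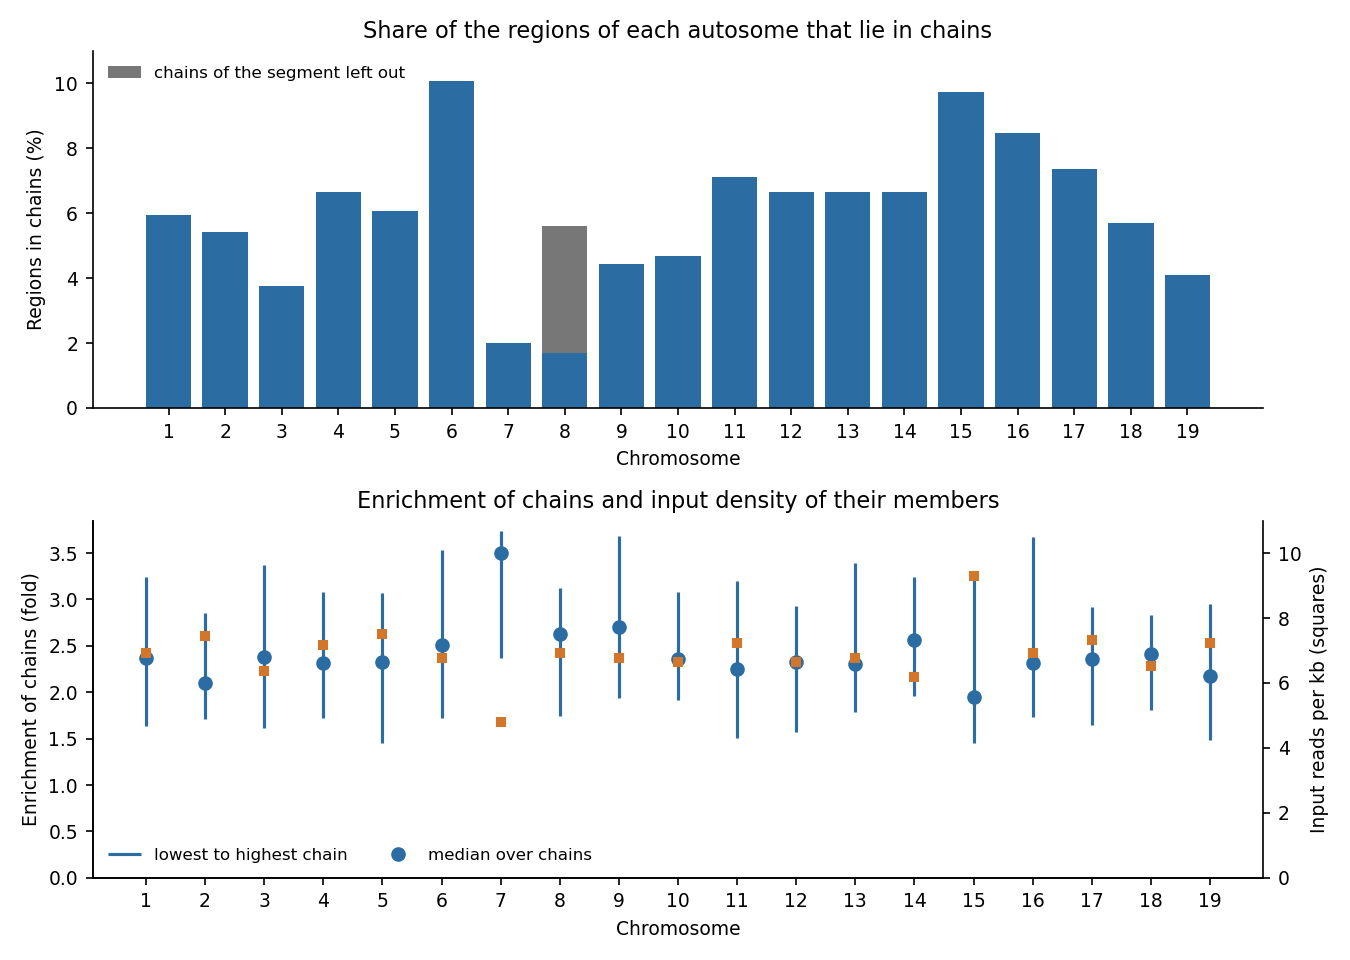
Top, percent of the regions of each autosome that lie in chains (blue), with the chains of the segment left out on chromosome 8 in grey (1.69% without and 5.59% with them). Chromosome 7 has 1.99% and chromosome 6 has 10.1%. Bottom, enrichment of chains per autosome (left axis, median as points and lowest to highest chain as lines) and input reads per kb of their members (right axis, squares); chromosome 7 has the highest median enrichment and the lowest input density, and chromosome 15 the reverse.

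The surroundings of chains were denser than those of single regions. The region next to a chain end, on the outside, was at a median distance of 5.2 kb, and 493 of 987 such distances (49.9%) were 5 kb or less. Outside single regions the median was 11.0 kb and 25.8% were 5 kb or less. Both sets were defined by distances in the same list, and groups of sizes between them were not measured. The difference is therefore not read as a trait of chains. The nearest other chain was a median of 379.8 kb away, and 152 chains (30.8%) had another chain within 100 kb. No such distances were taken for other groups of regions, so nearness among chains is not read from these values. When each chromosome was divided into 5 equal parts, the part nearest to the centromere held 41 chains (8.30%) and 13.9% of other regions. The part farthest from it held 129 chains (26.1%) and 23.6% of other regions.

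A run of 5 chains on chromosome 9 illustrates such surroundings. It opened with 8 regions from 60742801 to 60801800, enriched 3.03-fold (2.68 to 3.44). The chain of 7 regions from 60812001 followed with 2.89-fold (2.72 to 3.07), and the chain of 6 regions from 60997601 began only 2200 bp further and had 3.27-fold (3.06 to 3.49). Then came 9 regions from 61284601 to 61382400 with 3.11-fold (2.85 to 3.40) and 11 regions from 61386201 to 61493400 with 2.59-fold (2.38 to 2.82). All 5 had more than the median enrichment over chains. This run was chosen after its values had been seen.

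Finally, the loci that the study measured by ChIP-qPCR were looked up. Fn1 encodes the matrix protein fibronectin, Itga11 the integrin alpha 11 subunit, and Col1a1 a chain of type I collagen. Of the 5 amplicons, 3 overlapped a region and none lay in a chain. Chains held only 6.08% of autosomal regions, so 3 regions are too few to read this as a trait of the loci. The regions at Fn1 and Itga11 were single, and the region at the third Col1a1 amplicon was 1 of a pair. The nearest chain was 364.0 kb away from the Fn1 amplicon, at 72086201 to 72122800 on chromosome 1, with 5 regions and 1.96-fold (1.68 to 2.30). From the Itga11 amplicon the nearest chain was the last of the run on chromosome 9 described above, at 1031 kb. For the Col1a1 amplicons it was a chain of 6 regions on chromosome 11 from 96286001 to 96320400, at 1449 to 1501 kb. These loci followed up the same profile, and no test was made of them.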

How the data were processed

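The measurement was ChIP-seq of macroH2A1.1 in C2C12 cells, with 1 ChIP and 1 input library grouped by the antibody label. According to the study's methods and the labels, the authors aligned reads to mm9 with Bowtie2 version 2.0.6 and called regions with SICER, although the name of the list refers to epic, which reimplements SICER. In the list, positions step by 200 bp and the shortest distance between regions is 800 bp. The study states a larger window and a larger gap for SICER, so the list was made with other settings. The number of chains and the gap sizes depend on these settings. The deposited read counts per region are not scaled. The deposited log2 fold is that of ChIP over input reads after division by a library factor (1.45), with 0.25 in place of 0 input reads. The deposited score is this log2 value times 100. The p-value and FDR of each region were deposited as the authors' caller gave them, over 56506 candidate regions.

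Autosomal regions were sorted by chromosome and start and chained by the distance from the listed end to the next listed start (up to 2000 bp, 5 regions or more). For whole chains, reads of the members were summed. Intervals are 95% Clopper-Pearson intervals of the ChIP share, divided by the library factor, and do not allow for duplicated molecules. The SD among members was taken on the caller's log2 values and again with a floor of 3 input reads. The one-sided exact binomial test was adjusted over the same candidates with the Benjamini-Hochberg procedure. The counting SD was the root of the mean of the reciprocal read counts on the log2 scale. Computations used Python 3.11.15, pandas 2.3.3, numpy 2.4.6 and scipy 1.17.1, and the functions were tested on simulated data.

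The chains and the summaries of them were chosen with earlier results of these data known. Chains were named by rank: the 5 with the most members, the longest span, the highest and the lowest enrichment, the 3 with the highest and the lowest covered share and the 3 with the largest SD, besides those at the thresholds and nearest to the amplicons. The list holds reads within regions and no library totals, so sequencing depth outside regions is unknown. A member held 22 to 3378 ChIP reads and 0 to 1321 input reads. The annotation and genome at hand are GRCm38. On 5 autosomes regions end past the GRCm38 chromosome, so no gene or sequence was taken from it. Alternatives were other joining distances, chain lengths, FDR and enrichment limits, the segment of chromosome 8, fewer chromosomes, classes of input density and width, and the input floor.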

Additional observations from a re-analysis of the deposited data

How the results depend on the processing

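Across 58 values recomputed for the 6 main results, 33 stayed within 1.5 times the count or within the interval of the reported value, 24 moved and 1 changed sign. These intervals were a Wilson interval for the share of regions and order-statistic intervals for medians. They treat regions and chains as independent, which they are not, so the tally is only a rough guide. Members of chains were higher than other regions under all 12 alternatives run for that difference. The number of chains ranged most widely with the joining distance. At 1000 bp there were 25 chains with 0.275% of autosomal regions, a median span of 44.8 kb and a covered share of 92.7%, and the ends were then higher than the inside by 0.0079 on the log2 scale, the only change of sign. At 5000 bp there were 1665 chains with 24.3% of regions, 41.2 kb and 75.8%, and members exceeded others by 0.080. With 8 or more regions per chain, 61 chains held 1.17% of regions over 69.8 kb, covered at 88.4%, with a difference of 0.16. Among regions of 2-fold or more, 126 chains held 2.36% of regions over 40.5 kb, covered at 87.9%, with a difference of 0.041. The share of regions was 5.77% at an FDR of 0.01, 5.32% in the binomial test and 7.27% with up to 2000 uncovered bp, a reading added after the data were seen. The difference was 0.076 in the binomial test and 0.14 within classes of input density. Stricter limits leave fewer regions to chain, and for the remaining shifts the cause was not tested. No paired analysis was possible because there was only 1 library on each side, and none could be left out. Depth limits single members, whose counting error on the log2 scale had a median SD of 0.300.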

Other observations

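Some bins of 1 Mb held several chains, and these bins were looked up after their values had been seen. No background was taken for the counts. Of the 339 bins in which a chain started, 235 held 1 chain and 35 held 3 or more. The bin with the most chains was on chromosome 13 from 102 to 103 Mb, where 7 chains with 38 regions had enrichments from 1.92-fold to 2.39-fold. It was followed by chromosome 14 from 25 to 26 Mb, with 5 chains and 38 regions between 2.57-fold and 3.14-fold, and by chromosome 4 from 55 to 56 Mb, with 5 chains and 31 regions between 2.17-fold and 2.46-fold.

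When regions up to 5000 bp apart were joined, 63 of the 494 chains merged into 30 longer ones. The chain with the most regions was then on chromosome 14 from 25660001 to 25999400, with 44 regions over 339.4 kb. It held 4 of the chains described here, was covered at 81.9% and was enriched 2.60-fold (2.47 to 2.74) from 6619 ChIP reads and 1754 input reads. The next, on chromosome 6 from 99728601 to 100171400, had 28 regions over 442.8 kb and 3.20-fold (3.07 to 3.34), and it contained the longest chain.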
